A study of Mus musculus with 16 samples.

Results

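The genes of the Wnt signalling system that act outside and at the surface of the cell, with its scaffold and nuclear partners, were followed in mouse white adipose tissue. Genes were taken by symbol: the Wnt ligands, the R-spondins, the frizzled receptors, the co-receptors Lrp5 and Lrp6, the secreted inhibitors of the Sfrp and Dkk families with Wif1, the secreted protein Ccn5, and the intracellular partners Axin1, Axin2, Lef1 and the Tcf7 genes. The rule found 52 of the 18193 genes on the array. They were 19 Wnt ligands, 4 R-spondins, 12 receptors, 10 secreted inhibitors, Ccn5, 2 Axin scaffolds, 3 nuclear factors and 1 transcript antisense to Fzd10.

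RNA of white fat was hybridised to Affymetrix whole-genome mouse arrays, in 4 groups of 4 arrays that crossed genotype with diet in C57BL6/J mice. Wild-type mice carried no Cre transgene, while knockout mice lacked Sirt1, which encodes an NAD-dependent deacetylase, through a Cre recombinase under the promoter of Fatty acid binding protein 4 (FABP4-Cre). From 4 to 12 weeks of age, when the fat was taken, each genotype was fed food low or high in fat, an exposure of 8 weeks. The sources used here name neither the depot, the sex nor the composition of the diets, and do not say that the 4 arrays of a group came from separate mice, so p-values measure the spread between arrays, which may be technical. Single arrays are written as WT-LF, KO-LF, WT-HF or KO-HF (wild type or knockout, low or high fat) with their replicate number. Every knockout array and no wild-type array came from Cre carriers, so the transgene and the loss of Sirt1 cannot be told apart. All arrays measured whole tissue, in which fewer cells of a type and less RNA per cell cannot be told apart.

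Wnt proteins are lipid-modified secreted ligands that bind frizzled receptors. With the co-receptors LRP5 and LRP6 they free beta-catenin from a degradation complex built on AXIN, and beta-catenin then acts with TCF/LEF factors on target genes, among them Axin2, a feedback inhibitor. R-spondins raise the amount of receptor at the cell surface, whereas SFRP proteins and WIF1 bind Wnt proteins outside the cell and most DKK proteins block the co-receptors. In fat, beta-catenin signalling is known to hold precursor cells back from becoming adipocytes, SFRP5 is a secreted product of adipocytes that binds WNT5A, and WNT5A can signal without beta-catenin.

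The RefSeq promoter table (GRCm38.p6) had an entry for 33 of the 52 genes. The 250 bases before the start site are shown for Sfrp5, Fzd5 and Fzd7, because these were the genes with an entry among the 4 that rose on the high fat diet in both genotypes, and for Axin2, because it is a widely used readout of beta-catenin signalling. Capitals mark the TCF/LEF letters CTTTGAA or CTTTGAT or CTTTGTA or CTTTGTT on either strand, and every sequence is written along the strand of its gene, with the start site after the last base.
Sfrp5 (chr19:42202253-42202502, minus strand): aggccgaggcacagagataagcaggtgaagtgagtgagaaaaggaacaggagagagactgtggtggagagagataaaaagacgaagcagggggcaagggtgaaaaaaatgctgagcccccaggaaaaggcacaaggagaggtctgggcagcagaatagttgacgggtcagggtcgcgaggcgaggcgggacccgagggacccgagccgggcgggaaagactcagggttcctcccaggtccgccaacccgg
Fzd5 (chr1:64737751-64738000, minus strand): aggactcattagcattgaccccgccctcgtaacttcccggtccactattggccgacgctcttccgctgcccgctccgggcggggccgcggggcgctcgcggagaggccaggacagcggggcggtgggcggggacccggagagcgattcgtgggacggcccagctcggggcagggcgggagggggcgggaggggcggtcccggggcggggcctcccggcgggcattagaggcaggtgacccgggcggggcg
Fzd7 (chr1:59481897-59482146, plus strand): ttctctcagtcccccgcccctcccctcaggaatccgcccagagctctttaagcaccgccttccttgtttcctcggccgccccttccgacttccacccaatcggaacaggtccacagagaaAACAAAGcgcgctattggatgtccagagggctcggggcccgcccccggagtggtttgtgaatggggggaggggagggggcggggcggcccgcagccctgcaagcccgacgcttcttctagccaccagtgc
Axin2 (chr11:108920099-108920348, plus strand): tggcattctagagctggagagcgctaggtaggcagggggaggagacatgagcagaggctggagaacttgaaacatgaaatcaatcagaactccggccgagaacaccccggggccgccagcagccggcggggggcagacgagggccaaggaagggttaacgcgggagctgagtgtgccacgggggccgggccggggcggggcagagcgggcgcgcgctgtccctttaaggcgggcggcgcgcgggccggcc
Of these 4 windows, the Fzd7 window alone held a match, AACAAAG read along the gene's strand, which begins 130 bases before the start site. Among all the genes of the rule, 6 of 40 windows held a match, against 14.8% of the 32851 windows in the table. The absence of a match says only that these letters are not in these windows, and a match is not a measured binding site.

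Each deposited value was the log2 expression of 1 probe set, and each gene is represented by its brightest probe set with 1 gene symbol. A gene was tested where at least 4 arrays read 4 or higher. Where a mean of probe sets is given, it covers all single-symbol probe sets of the gene, those that failed this filter included. Array medians lay between 4.34 and 4.46, and arrays of a group correlated at r of 0.987 to 0.996 across probe sets. The Sirt1 probe set on the low fat diet read 9.43 ± 0.35 in wild type and 9.24 ± 0.22 in the knockout, and with the high fat diet 8.97 ± 0.14 and 8.74 ± 0.30 (SD, n = 4 arrays). The knockout values were 0.19 and 0.22 lower (limma, Benjamini-Hochberg adjusted p = 0.498 and 0.448). Where the probe set lies relative to the deleted part is not known, so this neither checks nor contradicts the labels. The 5 adipocyte markers on the array (Adipoq, Cidec, Lipe, Pparg and Lep) read 10.7 or more on every array. In 5 arrays (WT-LF 3, WT-LF 4, WT-HF 3, KO-LF 2 and KO-HF 4) the skeletal muscle gene Tnnt3 read between 8.20 and 10.5, against 3.40 to 7.95 in the other 11. The cut was set at 8 on this gene alone, and WT-HF 4 (7.95) fell just below it. Another muscle gene, Mylpf, read 9.13 on WT-HF 4 and 9.28 on KO-HF 4. Myh1 read 7.64 on KO-LF 1, 7.45 on WT-HF 3 and 6.42 on KO-HF 4. The other 11 are therefore not all free of muscle transcripts. Leaving out the 5 keeps only WT-LF 1 and WT-LF 2 of the wild-type low fat group. WT-HF 4 carried the urothelial gene Upk1a at 11.7, against at most 4.22 elsewhere.

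Of the 52 genes, 26 passed the filter and 24 of those read 4 or more on all 16 arrays. Another 23 stayed below 4 on every array, between 1.39 and 3.82, which is near the background of the method and gives no order among them. The remaining 3, Dkk2, Wnt2 and Wnt4, reached 4 on 1 to 3 arrays. Most Wnt ligands were among the dim genes: 16 of 19 were filtered out and 14 never reached 4, including Wnt10b, an inhibitor of adipocyte formation. The ligands that could be tested were Wnt5a, Wnt5b and Wnt9a. By role, 3 of 19 Wnt ligands, 2 of 4 R-spondins, 10 of 12 receptors, 5 of 10 secreted inhibitors, Ccn5, both Axin genes and the 3 nuclear factors were tested.

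Differences are given as log2 high fat minus low fat or knockout minus wild type, with the standard error of the fit, and a gene was called where its Benjamini-Hochberg adjusted p over all 12078 tested genes lay under 0.05 (limma). On the high fat diet, 9 of the 26 tested genes rose and 1 fell in wild type, so 38.5% were called against 35.6% of all tested genes. In the knockout, 5 rose and 8 fell with the same diet, which is 50% against 29.2%. Knockout on the low fat diet went with 4 rises and 2 falls (23.1% against 18.9%), and knockout on the high fat diet with 2 rises and 8 falls (38.5% against 15.1%). The interaction, which asks whether the diet difference was the same in the 2 genotypes, was called for 10 genes (38.5% against 13%), of which 9 were lower in the knockout. The count in wild type therefore lay near the background, while the falls in the knockout on the high fat diet (8 of 26) stood against a background of 6.47% for falls. These falls numbered 4 without WT-HF 4, without KO-HF 1 or without KO-HF 4, and 5 without WT-HF 3. They numbered 3 without the 5 muscle-transcript arrays (11.5%, against 2.62% of all tested genes) and 1 without those and WT-HF 4 (3.85%, against 1.29%). Leaving out the 5 muscle-transcript arrays, 7 genes were called for diet in wild type (26.9%, against 21.3% of all tested genes) and 6 for diet in the knockout (23.1%, against 19.4%). The same fit called 4 for knockout on the low fat diet (15.4%, against 7%), 4 for knockout on the high fat diet (15.4%, against 6.74%) and 4 for the interaction (15.4%, against 3.51%).

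Arrays of the compared groups did not overlap for 9 of the 26 genes for diet in wild type (30.8% of all tested genes), 12 for diet in the knockout (33.1%), 6 for knockout on the low fat diet (17.9%) and 12 for knockout on the high fat diet (26.1%). By direction, 20.5% of all tested genes rose and 15.2% fell with diet in wild type, 15.6% and 13.5% with diet in the knockout, 11.7% and 7.24% with knockout on the low fat diet, and 8.58% and 6.47% with knockout on the high fat diet. For the interaction 5.12% were called upward and 7.87% downward.

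The median difference over the 26 genes was 0.36 for diet in wild type and -0.25 for diet in the knockout, where the medians over all tested genes were 0.04 and -0.02. It was 0.24 for knockout on the low fat diet and -0.43 on the high fat diet, against 0.04 and 0.00 over all tested genes. For the interaction 21 of 26 genes had a negative value, with a median of -0.76 against -0.01. Gene by gene, with the brightest probe sets, Fzd5, Fzd7, Sfrp1 and Sfrp5 rose with diet in both genotypes, and Wnt5a alone was called in opposite directions. Whether the genes as a group differed between the genotypes was not tested. The wild-type low fat arrays serve as the reference for both diet in wild type and the low fat genotype comparison, and each of the other groups also enters 2 pairwise comparisons, so these are not independent of each other.

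**Figure D1:**
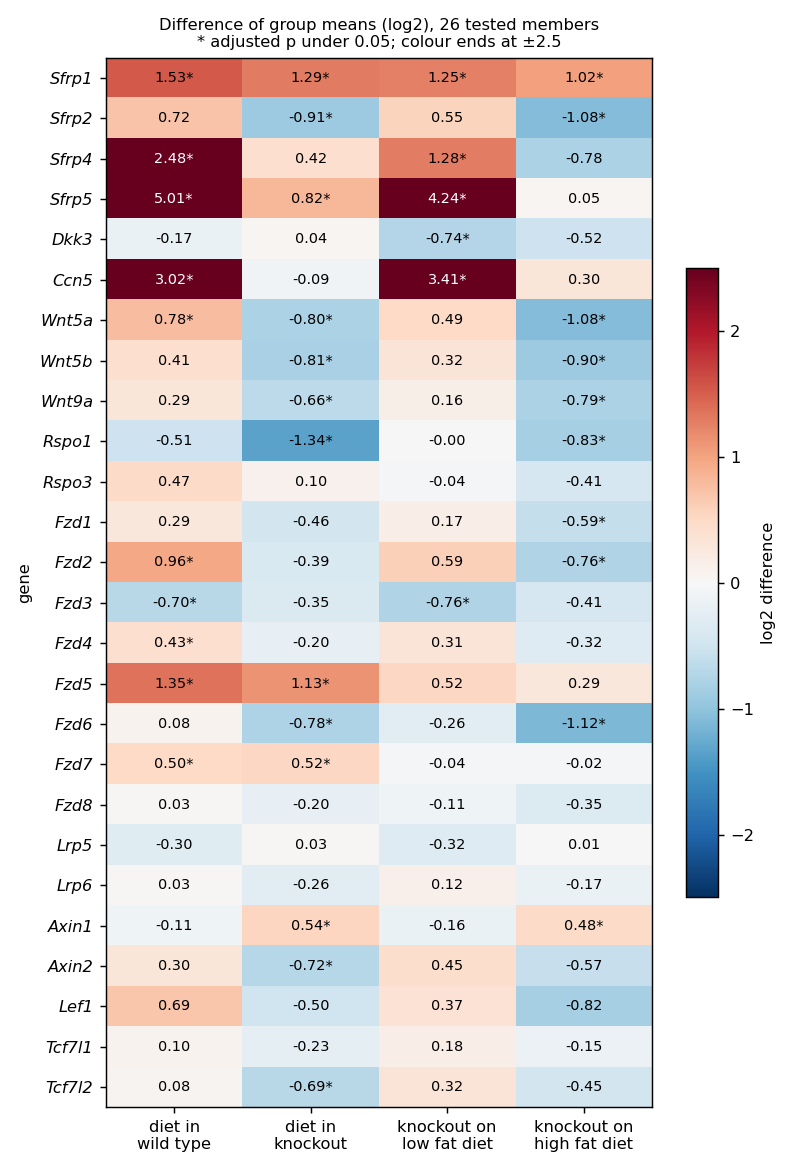
Colour map of the log2 difference of the 26 tested genes, 1 row each, in the 4 pairwise comparisons, 1 column each; a star marks an adjusted p under 0.05 (limma, Benjamini-Hochberg). Sfrp5, Ccn5, Sfrp4 and Sfrp1 are starred and higher both for diet in wild type and for knockout on the low fat diet, while 8 genes are starred and lower for knockout on the high fat diet.

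Secreted proteins showed the steepest rises among the 26 tested genes. Sfrp5, Sfrp4 and Sfrp1 rose on the high fat diet in wild type and were also higher in the knockout on the low fat diet, and Ccn5 did the same. On the high fat diet Sfrp1 was the only one of these 4 that was called between the genotypes.

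Sfrp5, the adipocyte inhibitor that binds WNT5A, read 6.83, 7.37, 6.68 and 7.10 on the wild-type low fat arrays and 11.68, 12.14, 12.14 and 12.07 on the wild-type high fat arrays. It read 11.77, 11.16, 11.45 and 10.57 in the knockout on the low fat diet and 12.10, 11.87, 12.15 and 12.12 on the high fat diet. The wild-type low fat arrays were all at least 3 log2 units below every other array, and the wild-type and knockout high fat arrays overlapped. With the high fat diet Sfrp5 rose by 5.01 (SE 0.21), which is 32.3-fold, in wild type and by 0.82 (SE 0.21), which is 1.77-fold, in the knockout (limma, Benjamini-Hochberg adjusted p = 1.1e-09 and 0.00834). It was 18.9-fold higher in the knockout on the low fat diet, by 4.24 (SE 0.21, adjusted p = 1.42e-08). On the high fat diet the genotypes differed by 0.05, with a 95% interval of -0.40 to 0.50 (adjusted p = 0.9). The rise with diet was smaller in the knockout by 4.19 (SE 0.30, adjusted p = 1.57e-06). The other tested probe set of Sfrp5 was also called in these comparisons except for knockout on the high fat diet, with 5.71 for diet in wild type, 1.66 for diet in the knockout and 4.28 for knockout on the low fat diet. Without the 5 muscle-transcript arrays the rise in the knockout was 0.78 and lost its call (adjusted p = 0.0745).

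Ccn5 encodes a secreted matricellular protein that is known to be released by fat precursor cells and to activate canonical Wnt signalling. Its wild-type low fat arrays were spread over 5.37, 8.13, 9.40 and 10.72, the widest spread of any group here (SD 2.28). The wild-type high fat arrays read 11.08, 11.90, 11.38 and 11.33, the knockout low fat arrays 12.20, 11.97, 11.98 and 11.13 and the knockout high fat arrays 11.96, 11.74, 11.73 and 11.46. All 12 of these lay above the highest wild-type low fat array, and they overlapped among themselves. Ccn5 rose with diet in wild type by 3.02 (SE 0.73), or 8.10-fold (adjusted p = 0.00464), and was higher in the knockout on the low fat diet by 3.41 (SE 0.73), or 10.7-fold (adjusted p = 0.0045; limma, Benjamini-Hochberg). In the knockout the diet difference was -0.09 (95% interval -1.65 to 1.46, adjusted p = 0.936), and between genotypes on the high fat diet it was 0.30 (95% interval -1.25 to 1.85, adjusted p = 0.83). These intervals rest on a spread pooled over all 4 groups, the wild-type low fat arrays included, whereas the SD of the compared groups was 0.35 in wild type on the high fat diet and 0.47 and 0.20 in the knockout on the low and high fat diets. The interaction, -3.11 (95% interval -5.31 to -0.92), missed the threshold (adjusted p = 0.0588). The size rests on single arrays: without WT-LF 1 the rise in wild type was 2.01 and the interaction -2.10 with an adjusted p of 0.0344. Without WT-LF 4 the interaction was -3.89 (adjusted p = 0.00874), and without the 5 muscle-transcript arrays the rise in wild type was 4.69 and the interaction -4.65 (adjusted p = 0.0139).

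Sfrp4, another Wnt-binding inhibitor, read 5.84, 6.59, 6.46 and 6.73 on the wild-type low fat arrays and 9.15, 8.91, 9.03 and 8.46 on the wild-type high fat arrays. In the knockout it read 7.37, 9.02, 7.50 and 6.84 on the low fat diet and 8.38, 7.92, 8.13 and 7.99 on the high fat diet. The wild-type groups did not overlap, and every knockout array lay above every wild-type low fat array, with KO-LF 2 near the wild-type high fat level. Sfrp4 rose 5.60-fold with diet in wild type, by 2.48 (SE 0.34, adjusted p = 5.5e-05), and was 2.42-fold higher in the knockout on the low fat diet, by 1.28 (SE 0.34, adjusted p = 0.0162). The rise with diet was smaller in the knockout by 2.06 (SE 0.48, adjusted p = 0.0115), and within the knockout the diet difference was 0.42 (adjusted p = 0.379). The low fat genotype difference was 0.83 without KO-LF 2, and its call was lost without WT-LF 1 (adjusted p = 0.0587) and without the 5 muscle-transcript arrays (adjusted p = 0.0549).

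Sfrp1, a further Wnt-binding inhibitor, was called upward in all 4 pairwise comparisons, and no other of the 26 genes was. Its arrays read 6.28, 6.65, 6.71 and 7.25 in wild type and 8.04, 8.27, 7.78 and 7.81 in the knockout on the low fat diet. The high fat arrays read 8.32, 8.04, 8.45 and 8.19 in wild type and 8.91, 9.19, 9.33 and 9.63 in the knockout. The wild-type low fat arrays were lowest and the knockout high fat arrays highest, without overlap with the other groups, and the 2 middle groups overlapped. The diet rise was 1.53 (SE 0.19, adjusted p = 2.83e-05) in wild type and 1.29 (SE 0.19, adjusted p = 0.000128) in the knockout, and the genotype difference was 1.25 (SE 0.19, adjusted p = 0.000422) on the low fat and 1.02 (SE 0.19, adjusted p = 0.00254) on the high fat diet (limma). The interaction was -0.23 (95% interval -0.81 to 0.35, adjusted p = 0.598), and over the 4 tested probe sets it ran from -0.23 to 0.98, with none called. The 4 pairwise calls were kept under every alternative run, and all 4 tested probe sets of the gene were called upward in each comparison, except for 1 of them for knockout on the low fat diet.

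Sfrp2 went the other way on the high fat diet. The wild-type high fat arrays read 11.01, 11.68, 11.74 and 11.39 and the knockout high fat arrays 9.71, 10.55, 10.79 and 10.46, which did not overlap. On the low fat diet the wild-type arrays read 9.82, 11.13, 10.49 and 11.50 and the knockout arrays 10.89, 11.66, 11.47 and 11.11, which did. Sfrp2 fell with diet in the knockout by 0.91 (SE 0.32, adjusted p = 0.0416) and was lower in the knockout on the high fat diet by 1.08 (SE 0.32, adjusted p = 0.0309), with an interaction of -1.63 (SE 0.45, adjusted p = 0.0263) (limma). Each of these calls depended on single arrays. The diet call was lost without KO-LF 2, KO-LF 3, KO-LF 4, KO-HF 1, KO-HF 2 or KO-HF 4 (adjusted p 0.0521 to 0.142), the genotype call without WT-HF 2, WT-HF 3, WT-HF 4, KO-HF 1 or KO-HF 4 (adjusted p 0.0526 to 0.115), and the interaction without KO-LF 2, KO-LF 3, WT-HF 3 or KO-HF 1 (adjusted p 0.0517 to 0.0565). All 3 were lost without the 5 muscle-transcript arrays (adjusted p = 0.141, 0.115 and 0.107).

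Of the other inhibitors, Dkk3, a divergent member of the DKK family, was the only one tested. It read 7.46, 6.87, 6.22 and 7.25 in wild type and 6.33, 6.39, 5.92 and 6.21 in the knockout on the low fat diet, which overlapped, and was lower in the knockout there by 0.74 (SE 0.24, adjusted p = 0.04) (limma). That call was lost without WT-LF 1, WT-LF 4, KO-LF 1, KO-LF 2, KO-LF 3, KO-LF 4 or KO-HF 4 (adjusted p 0.0505 to 0.136), and the other tested probe set was not called. Wif1 stayed below 4 on every array, from 1.39 to 3.69, so no fold is given for it.

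**Figure D2:**
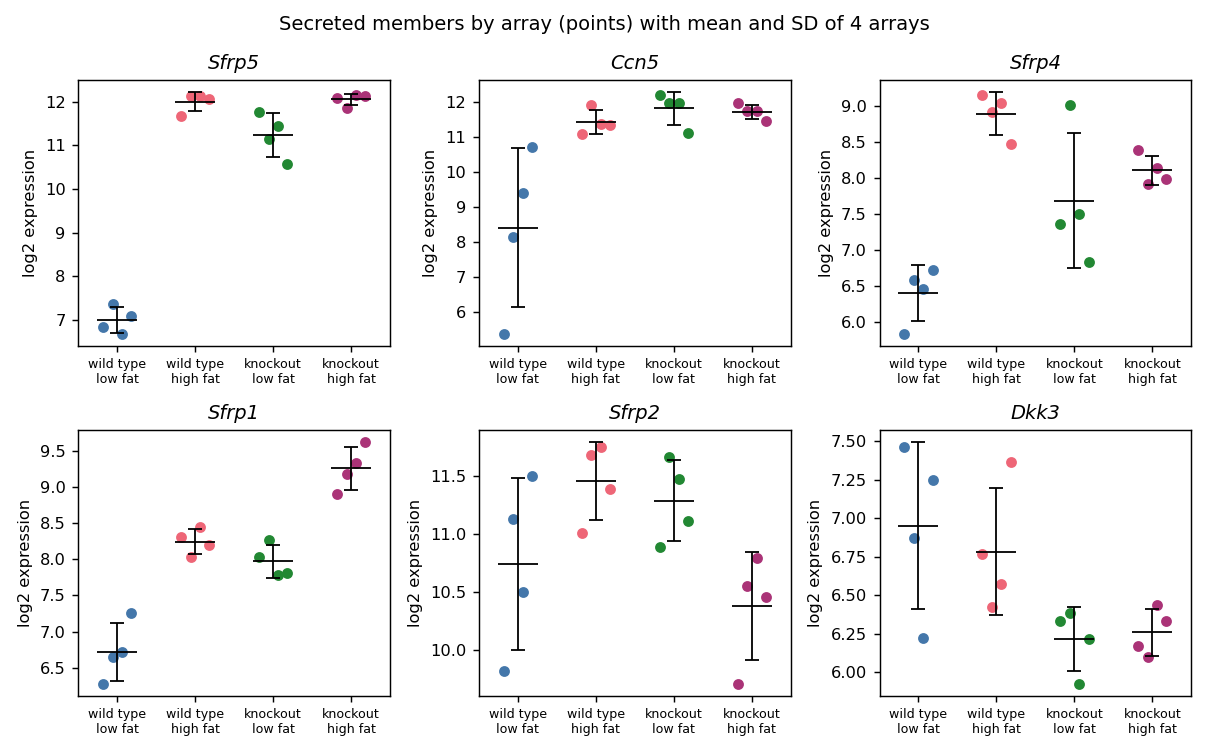
Log2 expression of the secreted inhibitors and Ccn5 on each array (points), with the mean and SD of the 4 arrays of a group, for wild type and knockout on low and high fat diet. The wild-type low fat arrays of Sfrp5 lie between 6.68 and 7.37, below every other array, and Sfrp1 is highest in the knockout on the high fat diet, between 8.91 and 9.63.

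The 3 ligands that could be tested shared a pattern: each was lower in the knockout on the high fat diet than in wild type on that diet and than in the knockout on the low fat diet. None of them was called between the genotypes on the low fat diet. Their interaction values were all negative and were called for Wnt5a and Wnt5b.

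Wnt5a, a ligand best known for signalling without beta-catenin and for promoting inflammation in fat, read 8.23, 8.96, 8.03 and 8.69 in wild type on the low fat diet and 8.98, 9.28, 9.31 and 9.44 on the high fat diet. The knockout arrays read 8.98, 9.17, 8.78 and 8.94 on the low fat diet and 7.53, 8.54, 8.26 and 8.34 on the high fat diet. The wild-type high fat arrays were above every wild-type low fat array, and the knockout high fat arrays were below every array of the wild-type high fat and knockout low fat groups. It rose with diet in wild type by 0.78 (SE 0.22, adjusted p = 0.0111) and fell in the knockout by 0.80 (SE 0.22, adjusted p = 0.0115). With the brightest probe sets, no other tested gene of the set was called in opposite directions in the 2 diet comparisons. The diet difference was lower in the knockout by 1.57 (SE 0.31, adjusted p = 0.00418), and on the high fat diet the knockout was lower by 1.08 (SE 0.22, adjusted p = 0.00355) (limma). Of its 3 tested probe sets, 3 were called upward for diet in wild type, 1 downward for diet in the knockout, and 2 downward for knockout on the high fat diet and for the interaction. Without the 5 muscle-transcript arrays the calls for diet in wild type (adjusted p = 0.147), diet in the knockout (0.0573) and the interaction (0.0741) were lost, with differences of 0.64, -0.79 and -1.43. The call for knockout on the high fat diet was lost when WT-HF 4 was left out with those 5 (adjusted p = 0.0836).

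Wnt5b, its close paralog, read 5.35, 6.24, 6.25 and 6.21 in the knockout on the low fat diet and 5.31, 5.56, 5.17 and 4.78 on the high fat diet, which overlapped through KO-LF 1. The wild-type arrays read 5.49, 5.56, 5.67 and 6.06 on the low fat and 6.05, 6.29, 6.22 and 5.87 on the high fat diet, all of the latter above the knockout high fat arrays. Wnt5b fell with diet in the knockout by 0.81 (SE 0.21, adjusted p = 0.00849) and was lower in the knockout on the high fat diet by 0.90 (SE 0.21, adjusted p = 0.00864), with an interaction of -1.22 (SE 0.30, adjusted p = 0.0143) (limma). In wild type the diet difference was 0.41 (adjusted p = 0.138). Of the 2 tested probe sets of Wnt5b, 1 was called upward for diet in wild type, where the values were 0.41 and 0.50. Both were called downward for diet in the knockout, for knockout on the high fat diet and for the interaction. Without the 5 muscle-transcript arrays the 3 calls were lost, with adjusted p of 0.101 for diet in the knockout, 0.088 for knockout on the high fat diet and 0.0984 for the interaction.

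Wnt9a read 7.20, 6.77, 7.51 and 7.23 in wild type and 6.29, 6.04, 6.72 and 6.47 in the knockout on the high fat diet, with no overlap, and 6.84, 6.95, 7.004 and 7.35 in the knockout on the low fat diet. It fell with diet in the knockout by 0.66 (SE 0.23, adjusted p = 0.0438) and was lower in the knockout on the high fat diet by 0.79 (SE 0.23, adjusted p = 0.0303) (limma). The diet call was lost without KO-LF 1, KO-LF 2, KO-LF 3, KO-LF 4, WT-HF 1, WT-HF 4, KO-HF 1, KO-HF 2 or KO-HF 4 (adjusted p 0.0517 to 0.121). The genotype call was lost without WT-HF 1, WT-HF 3, WT-HF 4, KO-HF 1, KO-HF 2 or KO-HF 4 (adjusted p 0.052 to 0.0973). The mean of the Wnt9a probe sets, which takes in a dim one that failed the filter, gave -0.31 and -0.43, neither called (adjusted p = 0.106 and 0.0518). Both calls were also lost without the 5 muscle-transcript arrays (adjusted p = 0.0841 and 0.136).

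Rspo1, an R-spondin that amplifies Wnt signalling at the receptor, read 9.48, 9.39, 9.20 and 9.12 in the knockout on the low fat diet and 8.15, 7.64, 8.26 and 7.80 on the high fat diet. The wild-type arrays read 9.72, 9.43, 8.80 and 9.26 on the low fat and 9.05, 8.35, 8.88 and 8.89 on the high fat diet. Every knockout high fat array lay below every other array. Rspo1 fell with diet in the knockout by 1.34 (SE 0.20, adjusted p = 0.000113) and was lower in the knockout on the high fat diet by 0.83 (SE 0.20, adjusted p = 0.00981), while the interaction, -0.83, was not called (adjusted p = 0.0618; limma). The diet call was kept under every alternative run, and the genotype call was lost without the 5 muscle-transcript arrays (-0.75, adjusted p = 0.0661). Rspo3, the other tested R-spondin, ranged from 3.88 to 6.38 on the wild-type low fat arrays and from 4.33 to 6.25 on the knockout high fat arrays, with all groups overlapping and no call.

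Among the 10 tested receptors, 4 rose and 1 fell with diet in wild type (50%, against 35.6% of all tested genes called), and 2 rose and 1 fell with diet in the knockout (30%, against 29.2%). With knockout 1 fell on the low fat diet (10%, against 18.9%) and 3 fell on the high fat diet (30%, against 15.1%). The co-receptors Lrp5 and Lrp6 and the receptor Fzd8 were called in no pairwise comparison.

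Fzd5 and Fzd7 rose on the high fat diet in both genotypes. Fzd5 read 7.0, 6.75, 5.21 and 6.23 in wild type on the low fat diet and 7.08, 7.81, 7.88 and 7.82 on the high fat diet, and in the knockout 6.92, 6.68, 6.86 and 6.79 and 7.66, 8.13, 8.05 and 7.93. The diet groups did not overlap in either genotype, with WT-HF 1 lowest of its group. The rises were 1.35 (SE 0.29, adjusted p = 0.00194) in wild type and 1.13 (SE 0.29, adjusted p = 0.00814) in the knockout (limma). The wild-type rise was 0.70 without the 5 muscle-transcript arrays and lost its call (adjusted p = 0.0559). The mean of the Fzd5 probe sets, which takes in a dim one that failed the filter, gave 0.82 in wild type and 0.75 in the knockout.

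Fzd7 read 9.69, 9.88, 9.06 and 9.88 and 10.26, 10.01, 10.11 and 10.14 on the low and high fat diets in wild type, and 9.80, 9.54, 9.64 and 9.37 and 10.10, 10.02, 10.16 and 10.14 in the knockout. Both rises were small: 0.50 (SE 0.16, adjusted p = 0.0203) in wild type and 0.52 (SE 0.16, adjusted p = 0.0203) in the knockout (limma). Without WT-LF 3 the wild-type difference was 0.31, and its call was lost without WT-LF 3 or WT-HF 1 (adjusted p 0.0501 to 0.0525). It was also lost without the 5 muscle-transcript arrays (0.35, adjusted p = 0.163), in a fit of the 2 groups alone (adjusted p = 0.0753) and with the mean of probe sets (0.18, adjusted p = 0.136). The knockout call was lost without KO-LF 4 (adjusted p = 0.0571) and without the 5 arrays and WT-HF 4 (adjusted p = 0.0594), and the mean of probe sets gave 0.34 (adjusted p = 0.0136). Both means take in a dim Fzd7 probe set that failed the filter.

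Fzd2 and Fzd4 rose with diet in wild type and were not called in the knockout, and for both the interaction was called. Fzd2 read 7.92, 7.78, 7.65 and 8.49 in wild type on the low fat and 9.18, 8.60, 8.62 and 9.27 on the high fat diet, without overlap. The knockout arrays read 8.29, 9.18, 8.37 and 8.34 on the low fat and 7.92, 8.03, 8.58 and 8.09 on the high fat diet, which overlapped. The rise in wild type was 0.96 (SE 0.24, adjusted p = 0.00528), the interaction -1.35 (SE 0.34, adjusted p = 0.016), and the knockout was lower on the high fat diet by 0.76 (SE 0.24, adjusted p = 0.0411) (limma). The last call was lost without WT-HF 1, WT-HF 4, KO-HF 1, KO-HF 2 or KO-HF 4 (adjusted p 0.0852 to 0.122), and it and the interaction were lost without the 5 muscle-transcript arrays and WT-HF 4 (adjusted p = 0.122 and 0.089). With array weights all 3 calls were lost, and the rise in wild type was 0.67 (limma, adjusted p = 0.0828). All 3 tested probe sets of Fzd2 were called for diet in wild type, but 1 of 3 for the interaction, and the mean of probe sets gave -0.78 for the interaction (adjusted p = 0.0503).

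Fzd4, a frizzled that also serves norrin signalling in endothelium, rose with diet in wild type by 0.43 (SE 0.12, adjusted p = 0.0109), from 11.79, 11.81, 11.92 and 12.12 to 12.25, 12.36, 12.33 and 12.41, without overlap. Its knockout arrays read 12.14, 12.13, 12.20 and 12.42 on the low fat and 11.71, 12.20, 12.09 and 12.08 on the high fat diet, with overlap. The interaction was -0.63 (SE 0.17, adjusted p = 0.023) (limma). The probe sets of Fzd4 differed in size. For knockout on the low fat diet the brightest gave 0.31 and was not called (adjusted p = 0.0776), while the other 2 gave 1.24 and 1.01 and were called. All 3 were called for the interaction, and their mean gave -1.11. Without the 5 muscle-transcript arrays the interaction was -0.79 and not called (adjusted p = 0.089). Leaving out WT-HF 4 as well, it had an adjusted p of 0.166, and the rise in wild type lost its call (adjusted p = 0.128).

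Fzd6 fell in the knockout on the high fat diet. Its arrays read 7.90, 7.37, 7.40 and 7.72 in wild type and 5.98, 6.63, 6.64 and 6.66 in the knockout on that diet, and 7.30, 7.55, 7.37 and 7.84 and 6.99, 7.23, 7.47 and 7.33 on the low fat diet. The knockout high fat arrays lay below every other array, with replicate 1 lowest. Fzd6 was lower in the knockout on the high fat diet by 1.12 (SE 0.18, adjusted p = 0.000879) and fell with diet in the knockout by 0.78 (SE 0.18, adjusted p = 0.00393), and both calls were kept under every alternative run (limma). With the mean of its probe sets, of which all but the brightest failed the filter, the values were -0.47 and -0.35. The interaction, -0.86 (SE 0.25, adjusted p = 0.0354), lost its call without WT-LF 1, WT-LF 3, KO-LF 2, KO-LF 3, WT-HF 1, WT-HF 4 or KO-HF 1 (adjusted p 0.0572 to 0.0734) and without the 5 muscle-transcript arrays (adjusted p = 0.0959).

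Fzd3, a receptor of planar polarity, was called lower in the same 2 comparisons in which Sfrp5, Ccn5 and Sfrp4 had their steepest rises. It read 5.91, 4.96, 5.85 and 5.55 on the wild-type low fat arrays, 4.67, 4.74, 5.14 and 4.92 on the wild-type high fat arrays and 4.60, 4.75, 4.76 and 5.13 on the knockout low fat arrays, with overlap at WT-LF 2. It fell with diet in wild type by 0.70 (SE 0.20, adjusted p = 0.0123) and was lower in the knockout on the low fat diet by 0.76 (SE 0.20, adjusted p = 0.015) (limma). The second call was lost without WT-LF 1 or KO-LF 1 (adjusted p 0.0526 to 0.0539), and both were lost without the 5 muscle-transcript arrays (adjusted p = 0.102 and 0.202). Of its 3 tested probe sets, 1 was called for diet in wild type, where the weakest gave -0.09, and 2 for knockout on the low fat diet, where the weakest gave -0.17. Fzd1 was lower in the knockout on the high fat diet by 0.59 (SE 0.18, adjusted p = 0.0358), from 10.43 to 10.71 in wild type to 9.61 to 10.25 in the knockout, and lost that call without WT-HF 2, WT-HF 3, WT-HF 4, KO-HF 1 or KO-HF 4 (adjusted p 0.0623 to 0.128) and without the 5 muscle-transcript arrays (adjusted p = 0.102).

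**Figure D3:**
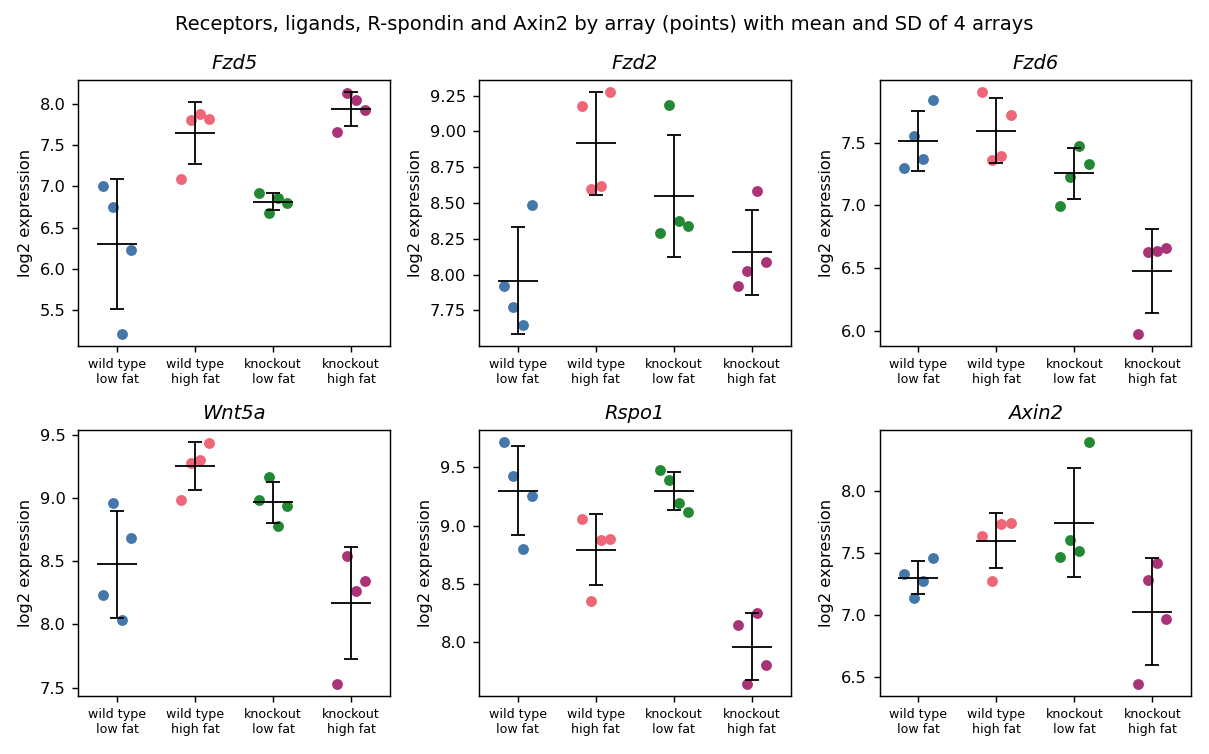
Log2 expression on each array (points) of Fzd5, Fzd2, Fzd6, Wnt5a, Rspo1 and Axin2, with the mean and SD of the 4 arrays of a group, for wild type and knockout on low and high fat diet. Wnt5a reads 8.98 to 9.44 in wild type and 7.53 to 8.54 in the knockout on the high fat diet, and Rspo1 and Fzd6 have their lowest arrays in the knockout on the high fat diet.

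Axin2, the feedback inhibitor that beta-catenin induces, read 7.33, 7.14, 7.28 and 7.46 and 7.64, 7.28, 7.74 and 7.75 on the low and high fat diets in wild type. In the knockout it read 7.47, 7.61, 7.51 and 8.40 on the low fat diet, where replicate 4 stood high, and 6.45, 7.28, 7.42 and 6.97 on the high fat diet. It fell with diet in the knockout by 0.72 (SE 0.22, adjusted p = 0.0216), and the interaction was -1.02 (SE 0.31, adjusted p = 0.0407) (limma). For diet in wild type the difference was 0.30 (adjusted p = 0.306), for knockout on the low fat diet 0.45 (0.169) and for knockout on the high fat diet -0.57 (0.0909), none called. The diet call was lost without KO-LF 4 or KO-HF 1 (adjusted p 0.0642 to 0.0789), and the interaction without WT-LF 1, WT-LF 2, WT-LF 3, KO-LF 2, KO-LF 4, WT-HF 1, WT-HF 3, WT-HF 4, KO-HF 1 or KO-HF 4 (adjusted p 0.0508 to 0.0811). Both were lost without the 5 muscle-transcript arrays (adjusted p = 0.104 and 0.219). Without KO-LF 4 the genotype difference on the high fat diet was called (adjusted p = 0.0407). With the mean of the Axin2 probe sets the diet difference in the knockout was -0.36 (adjusted p = 0.0597) and the interaction -0.33 (adjusted p = 0.268). The other Axin2 probe set in that mean failed the filter, so these smaller values mix in low readings.

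Axin1, the scaffold that is not a feedback target, was the only gene of the set with a called positive interaction. Its knockout high fat arrays read 6.90, 6.44, 6.76 and 6.84, against 6.09, 5.94, 6.45 and 6.32 in the knockout on the low fat diet, 6.39, 6.32, 6.14 and 6.17 in wild type on the high fat diet and 6.56, 6.09, 6.51 and 6.28 on the low fat diet. The knockout high fat arrays lay above every wild-type high fat array and overlapped the knockout low fat arrays. Axin1 rose with diet in the knockout by 0.54 (SE 0.14, adjusted p = 0.0105) and was higher in the knockout on the high fat diet by 0.48 (SE 0.14, adjusted p = 0.0332), with an interaction of 0.64 (SE 0.20, adjusted p = 0.0483) (limma). The genotype call was lost without WT-HF 2, WT-HF 3, WT-HF 4, KO-HF 1, KO-HF 3 or KO-HF 4 (adjusted p 0.0508 to 0.105), and the interaction without WT-LF 1, WT-LF 3, WT-LF 4, KO-LF 1, KO-LF 2, WT-HF 1, WT-HF 2, WT-HF 3, WT-HF 4, KO-HF 1, KO-HF 3 or KO-HF 4 (adjusted p 0.0524 to 0.101). All 3 calls were lost without the 5 muscle-transcript arrays, with adjusted p of 0.136 for diet, 0.206 for genotype and 0.415 for the interaction. The other tested probe set of Axin1 was not called in any comparison.

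Of the TCF/LEF factors, which carry beta-catenin to DNA, Tcf7l2 read 10.56, 10.55, 10.46 and 9.98 in the knockout on the low fat diet and 9.14, 9.75, 9.89 and 10 on the high fat diet, with overlap. It fell with diet in the knockout by 0.69 (SE 0.22, adjusted p = 0.0292) (limma), a call lost without KO-LF 1, KO-LF 2, KO-LF 3 or KO-HF 1 (adjusted p 0.0696 to 0.106), lost without the 5 muscle-transcript arrays (adjusted p = 0.0991) and made by 1 of its 4 tested probe sets. With their brightest probe sets, Lef1 and Tcf7l1 were called in no pairwise comparison. For diet in wild type, 1 of 2 tested probe sets of Tcf7l1 was called downward, with values from -0.48 to 0.095. In the same comparison 1 of 4 tested probe sets of Tcf7l2 was called downward, with values from -0.58 to 0.08.

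**Figure D4:**
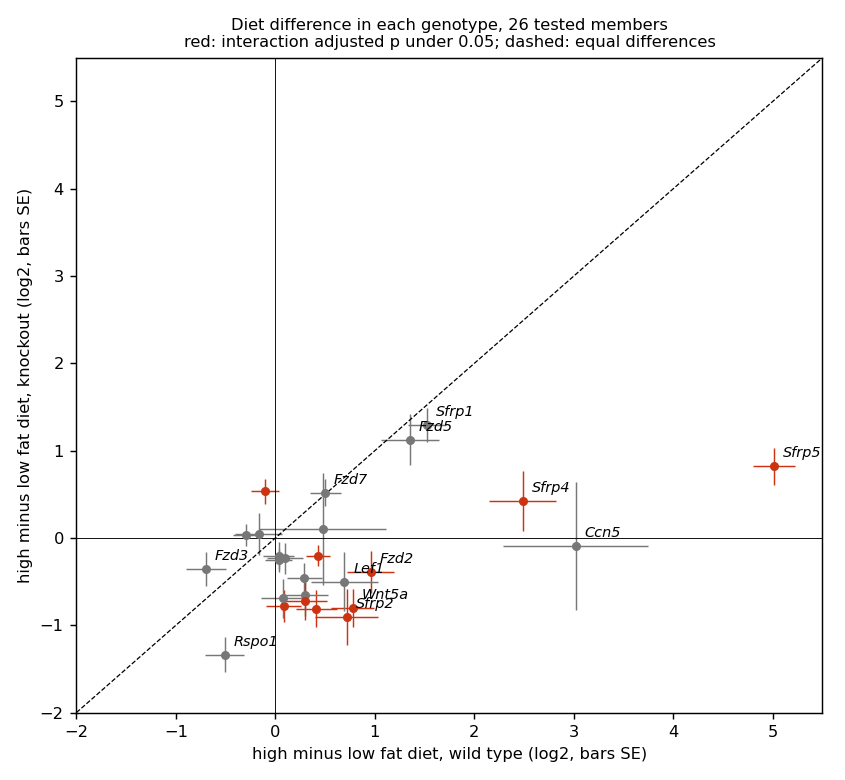
Log2 difference of high fat minus low fat diet in wild type (horizontal axis) against the same difference in the knockout (vertical axis) for the 26 tested genes, with red points where the interaction was called, bars of 1 SE and a dashed line of equal differences. Of the 26 genes, 21 lie below the line and 5 above it, and Sfrp5 lies farthest to the right at 5.01 in wild type and 0.82 in the knockout.

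Markers of other cell types moved with the same arrays. For mesothelium, the lining of abdominal organs and fat, 6 of 6 markers fell both with diet in the knockout (median -1.55) and with knockout on the high fat diet (median -1.49). Their summed log2 value was 42.5 to 49.8 on the knockout high fat arrays, 52.8 to 56.8 in wild type on that diet, 53.7 to 56.8 in the knockout on the low fat diet and 49.2 to 57.9 in wild type on the low fat diet. All 4 endothelial markers were lower in the knockout on the high fat diet (median -0.72), with sums of 30.1 to 33.6 against 34.6 to 36.1 in wild type. Of 6 stromal progenitor markers, 2 rose with diet in wild type and 2 with knockout on the low fat diet, and 1 fell with diet in the knockout and 1 with knockout on the high fat diet, with sums of 65.8 to 68.0 on the wild-type low fat arrays and 69.2 to 69.8, 67.8 to 70.0 and 67.1 to 68.0 in the wild-type high fat, knockout low fat and knockout high fat groups. Of 5 macrophage markers, 3 rose with diet in wild type, 4 with diet in the knockout, 2 with knockout on the low fat diet and 3 with knockout on the high fat diet, and their sums ran from 42.6 to 43.6 on the wild-type low fat arrays to 54.6 to 55.8 on the knockout high fat arrays. Itgax moved most between these groups, from 3.45 to 5.25 up to 9.89 to 10.48. Csf1r read 10.64 to 11.45 in the first and 11.19 to 11.45 in the second. Of 7 epithelial markers, 3 were tested, namely Krt8, Krt18 and Krt19, which read above 4 on every array. Of these, 2 were lower in the knockout on the high fat diet (median -2.06) and 1 fell with diet in the knockout (median -1.60), with sums over all 7 of 29.0 to 31.3 on the knockout high fat arrays, 32.9 to 61.6 in wild type on that diet, 33.0 to 42.7 in the knockout on the low fat diet and 31.0 to 36.8 in wild type on the low fat diet. Epcam, Cdh1, Krt5 and Krt14 stayed below 4 on every knockout high fat array and on every wild-type low fat array, and Krt14 did so on all arrays. Whether Krt8, Krt18 and Krt19 fell separately from the mesothelial markers was not tested. Cdh1 read highest on WT-HF 4 (10.3) and KO-LF 4 (7.10). Of the 5 adipocyte markers, 1 rose and 2 fell with diet in wild type (median -0.16), 1 rose and 1 fell with knockout on the low fat diet, and none was called in the other pairwise comparisons. Their sums were 62.1 to 63.3, 61.8 to 63.0, 62.1 to 63.4 and 60.8 to 62.7 in the wild-type low fat, wild-type high fat, knockout low fat and knockout high fat groups. A level sum can hold opposite changes. In wild type Lep read 11.15 to 12.05 on the low fat and 12.89 to 13.30 on the high fat diet, and Pparg 11.95 to 12.50 and 11.15 to 11.41. No skeletal muscle marker was called in any comparison. The mesothelial, endothelial, stromal and macrophage lists had no defining marker below 4 in any group, except for 1 macrophage marker, Itgax, on wild-type low fat arrays. Their part in the differences of the Wnt genes was not tested.

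The wider pathway was described by 74 further genes in 7 lists (secretion, other receptors, other secreted modulators, cytoplasm, nucleus, common targets and planar polarity), of which 73 were on the array and 54 were tested. With diet in wild type 15 rose (27.8%, against 20.5% of all tested genes) and 3 fell (5.56%, against 15.2%). With diet in the knockout 4 rose (7.41%, against 15.6%) and 8 fell (14.8%, against 13.5%). Knockout on the low fat diet went with 8 rises (14.8%, against 11.7%) and 1 fall (1.85%, against 7.24%), and on the high fat diet with 2 rises (3.7%, against 8.58%) and 8 falls (14.8%, against 6.47%). The interaction was called for 1 gene upward (1.85%, against 5.12%) and 10 downward (18.5%, against 7.87%). Without the 5 muscle-transcript arrays the 8 falls with knockout on the high fat diet numbered 6 (11.1%, against 2.62%), the 8 rises on the low fat diet 1 (1.85%, against 5.03%) and the 10 downward interactions 3 (5.56%, against 2.63%). The medians over the 54 genes were 0.20, -0.08, 0.12, -0.20 and -0.30 in that order.

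Genes of the common target and cytoplasm lists were among the rises in wild type, whereas Axin2 was not called there (0.30, limma, adjusted p = 0.306). Whether Wnt signalling was behind these rises was not tested. The common targets had 4 of 6 tested genes higher there, where 20.5% of all tested genes rose: Cd44, a hyaluronan receptor, by 2.23 (SE 0.29, adjusted p = 3.29e-05), the cyclin gene Ccnd1 by 1.68 (SE 0.24, adjusted p = 7.65e-05), Ccn2 by 1.02 (SE 0.24, adjusted p = 0.00357) and the growth factor gene Bmp4 by 0.74 (SE 0.26, adjusted p = 0.0374) (limma). In the knockout Cd44 and Ccnd1 also rose with diet, by 1.68 (SE 0.29, adjusted p = 0.000427) and 1.05 (SE 0.24, adjusted p = 0.00383), whereas Bmp4 changed by -1.27 (SE 0.26, adjusted p = 0.00176). For Bmp4 the interaction was -2.02 (SE 0.37, adjusted p = 0.00293) and for Ccn2 -1.33 (SE 0.34, adjusted p = 0.0179). Without the 5 muscle-transcript arrays both interactions lost their calls (adjusted p = 0.0643 and 0.061), as did the rise of Bmp4 in wild type (adjusted p = 0.215), which was also lost without WT-LF 2, WT-LF 3, WT-HF 1 or WT-HF 4 (adjusted p 0.0519 to 0.121). The cytoplasmic inhibitors Dact1 and Nkd1, which act on Dishevelled, rose with diet in wild type by 2.12 (SE 0.24, adjusted p = 1.25e-05) and 1.39 (SE 0.20, adjusted p = 7.59e-05). Their interactions were -2.19 (SE 0.35, adjusted p = 0.00104) and -1.48 (SE 0.28, adjusted p = 0.00358), and on the high fat diet Dact1 differed between knockout and wild type by -1.54 (SE 0.24, adjusted p = 0.000819). The mean of the Nkd1 probe sets gave 0.78 for diet in wild type and -0.83 for the interaction. With the brightest probe set the Nkd1 interaction lost its call without the 5 muscle-transcript arrays and WT-HF 4 (limma, adjusted p = 0.0611). On the low fat diet 3 of 6 common targets were also higher in the knockout, where 11.7% of all tested genes rose. These were Cd44 by 1.48 (limma, adjusted p = 0.00245), Ccnd1 by 0.74 (0.0427) and Ccn2 by 0.80 (0.029). Nkd1 was higher there by 1.09 (adjusted p = 0.00147). Without the 5 muscle-transcript arrays only the Nkd1 call was kept. On the high fat diet Cd44 was higher in the knockout by 0.92 (adjusted p = 0.0414), also lost without them.

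Outside the cell, Frzb, a further frizzled-related inhibitor, rose with diet in wild type by 1.87 (SE 0.51, adjusted p = 0.00933), a call lost with array weights (adjusted p = 0.053). Apcdd1, a membrane inhibitor of Wnt signalling, changed with diet in the knockout by -0.79 (SE 0.12, adjusted p = 0.000137) and with knockout on the high fat diet by -0.77 (SE 0.12, adjusted p = 0.000702). The glypican gene Gpc3 changed by -1.47 (SE 0.36, adjusted p = 0.00596) and -1.54 (SE 0.36, adjusted p = 0.00882) in the same comparisons, with an interaction of -1.95 (SE 0.51, adjusted p = 0.0203), and its relative Gpc4 rose with diet in wild type by 0.55 (SE 0.10, adjusted p = 0.000465). The Gpc3 interaction lost its call without the 5 muscle-transcript arrays (adjusted p = 0.119). Leaving out WT-HF 4 as well, the calls of Gpc3 for knockout on the high fat diet and of Gpc4 were lost (limma, adjusted p = 0.113 and 0.065). The planar polarity cadherin gene Celsr2 fell in all 4 pairwise comparisons, with -1.58 (SE 0.24, adjusted p = 0.00011) for diet in wild type, -2.34 (SE 0.24, adjusted p = 5.08e-06) for diet in the knockout, -1.68 (SE 0.24, adjusted p = 0.000185) for knockout on the low fat diet and -2.44 (SE 0.24, adjusted p = 1.91e-05) on the high fat diet (limma, Benjamini-Hochberg). These 4 calls were kept under every alternative run, and the mean of its probe sets gave values from -1.13 to -1.09.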

How the data were processed

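The authors deposited 1 log2 value per probe set and array; the submitters' processing notes name GCRMA 2.20.0 and R 2.11.1 for this step. GCRMA corrects background by probe sequence, so low values depend on that model. Of 45037 probe sets, 34945 carried 1 gene symbol, 932 carried several and 9160 carried none. For each gene the single-symbol probe set with the highest mean was used, and 12078 of 18193 genes were tested.

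The 16 arrays entered 1 limma fit (limma 3.58.1, R 4.3.3) with a mean for each of the 4 groups (12 residual and 3.84 prior degrees of freedom), and p-values were adjusted over all tested genes by Benjamini-Hochberg, with a threshold of 0.05. The fit did not pair arrays by replicate number. Deviations from group means correlated between -0.321 and 0.199 over 24 pairs of arrays with the same number, with 5 over 0.1. Pairs with different numbers were not compared, so this does not show whether the numbers mark a pairing. The fit was run on simulated data with independent normal noise and few changed genes. Those data lack the widespread changes and foreign tissue transcripts of these arrays, so the run does not show how the fit behaves with them.

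The genes, the lists and the tests were chosen with earlier results of these data known. Every gene past the threshold could be named, up to 10 in each direction per comparison, Sfrp5, Ccn5 and Axin2 always, and up to 4 per list of further genes with the smallest p. Alternatives changed the filter, floor, variance model, array weights, scaling, probe sets and arrays fitted. Leaving out arrays with muscle or urothelial transcripts, and running the alternatives on the further pathway genes, were added after seeing the data. The number of arrays limits the precision.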

Additional observations from a re-analysis of the deposited data

Results flagged for a closer look

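Some single arrays stood apart from the other 3 of their group, by a gap to the nearest of them that passed Dixon's 95% limit as a share of the group's range (WT or KO for genotype, LF or HF for low or high fat, then the replicate number). Among tested genes these were Axin2 at 8.40 on KO-LF 4 (others 7.47 to 7.61), Fzd2 at 9.18 on KO-LF 2, Fzd5 at 7.08 on WT-HF 1, and Fzd6 at 5.98 and Lrp6 at 10.97 on KO-HF 1. The same held for Fzd8 at 5.33 on WT-LF 2, Sfrp5 at 11.68 on WT-HF 1, Tcf7l2 at 9.98 on KO-LF 4 and Wnt5b at 5.35 on KO-LF 1. Chance gives about 1 in 20 groups, and these were 9 of 104 groups of tested genes examined. Of the filtered genes Wnt2 is given, at 4.75 on WT-HF 4, the array with urothelial transcripts, against 2.80 to 3.00 on the other 3.

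The difference between high and low fat diet was tested between knockout and wild type with the interaction, and 10 genes passed (limma, Benjamini-Hochberg). The knockout minus wild-type values were -4.19 for Sfrp5, -2.06 for Sfrp4, -1.63 for Sfrp2, -1.57 for Wnt5a, -1.35 for Fzd2, -1.22 for Wnt5b, -1.02 for Axin2, -0.86 for Fzd6, -0.63 for Fzd4 and 0.64 for Axin1.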

How the results depend on the processing

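The 26 tested Wnt-family genes made 49 calls over the 5 comparisons (4 pairwise and the interaction). Of these, 15 were kept under every alternative run, 34 were lost under at least 1, 18 of them on leaving out a single array and 27 on leaving out the 5 muscle-transcript arrays, and none was reversed. Arrays are written as genotype (WT or KO), diet (LF or HF) and replicate number. Leaving out arrays also leaves fewer samples. Without those 5 arrays the calls among these genes numbered 7 for diet in wild type (10 in the report), 6 for diet in the knockout (13), 4 for knockout on the low fat diet (6), 4 for knockout on the high fat diet (10) and 4 for the interaction (10). Without the array with urothelial transcripts as well they numbered 5, 5, 5, 2 and 3. Over all tested genes the calls were 4304, 3523, 2284, 1818 and 1569 in the same order, 2567, 2341, 845, 814 and 424 without the 5 arrays, and 1778, 2226, 755, 486 and 307 without all 6. Array weights gave 5354 for diet in the knockout, 3424 for knockout on the high fat diet and 2481 for the interaction. The 54 tested further pathway genes made 18, 12, 9, 10 and 11 calls, 12, 11, 3, 6 and 3 without the 5 arrays and 9, 11, 3, 3 and 1 without all 6; array weights gave 19 for diet in the knockout and 18 for knockout on the high fat diet, and a fit of the compared groups alone 5 for knockout on the low fat diet. Leaving out each array gave 14 to 20, 9 to 14, 6 to 14, 7 to 13 and 10 to 13 of them, the 14 on the low fat diet without WT-LF 2. Of 33 calls of the further genes named, 18 were kept under every alternative, 15 were lost under at least 1 and 10 without the 5 arrays. A fit of the compared groups alone gave 3 of the Wnt-family genes and 1292 of all genes for knockout on the low fat diet.

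Leaving out each array in turn gave 10 to 11 Wnt-family genes for diet in wild type, 9 to 14 for diet in the knockout, 3 to 7 for knockout on the low fat diet, 5 to 11 for knockout on the high fat diet and 6 to 12 for the interaction. Over all genes it gave 1426 to 3075 for knockout on the low fat diet, 1084 to 2079 for knockout on the high fat diet and 1098 to 2382 for the interaction. The lowest counts of these genes were 3 without WT-LF 1 for knockout on the low fat diet, and 5 without WT-HF 4 or KO-HF 1 or 4, with 6 without WT-HF 3, for knockout on the high fat diet. For the interaction they were 6 without KO-LF 2 or KO-HF 1. The cause was not tested.

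Values that turned sign were all uncalled: Axin2 for diet in wild type was -0.032 with the mean of probe sets, Ccn5 for diet in the knockout was 0.043 without the 5 arrays and without all 6 and ran from -0.32 to 0.031 when single arrays were left out (0.031 without KO-LF 1), and Sfrp5 for knockout on the high fat diet ran from -0.055 (without WT-HF 1) to 0.12 when single arrays were left out. Median centring of the arrays split the calls for diet in wild type into 2050 higher and 2552 lower over all genes (2472 and 1832 before) and 9 and 3 among the Wnt-family genes. It gave 1151 and 1274 for knockout on the low fat diet (1410 and 874 before) and 853 and 868 for the interaction (618 and 951 before). With the replicate number as a block, a pairing that the labels do not state, the calls among the Wnt-family genes were 12, 13, 6, 9 and 11, and 4188, 3400, 2118, 1670 and 1390 over all genes. Values below a log2 of 4 depend on the background correction, which limits the 26 genes filtered out.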
